A study of Mus musculus with 2 samples.

Results

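Retinoids are the vitamin A compounds that skin takes up as retinol and turns, inside its own cells, into the hormone retinoic acid. Stra6 is a membrane receptor that takes retinol from its carrier in plasma, and Lrat esterifies retinol for storage. Retinol dehydrogenases oxidise retinol to retinal, the Aldh1a aldehyde dehydrogenases oxidise retinal to retinoic acid, the proteins Crabp1 and Crabp2 bind retinoic acid in the cytosol, and the Cyp26 cytochromes hydroxylate it for removal. Retinoic acid acts through nuclear receptors, and in epidermis it is known for holding back terminal differentiation. Described here are 9 genes of these steps, Stra6, Lrat, Crabp1, Crabp2, Aldh1a1, Aldh1a2, Aldh1a3, Cyp26a1 and Cyp26b1, chosen by gene name for their place in the pathway out of 31044 gene names on the arrays. Each had 1 probe of 60 bases, printed at 1 spot.

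Dorsal skin of Sdr9c7-/- newborns (Sdr9c7 knockout) was compared with dorsal skin of wild type newborns, all at postnatal day 0 (P0) on the C57BL/6J background. Sdr9c7 is a short-chain dehydrogenase of differentiating epidermis, of the same enzyme superfamily as the retinol dehydrogenases, and the study's title places it in acylceramide dehydrogenation and barrier formation. There was 1 array for each genotype, hybridised with RNA pooled in equal amounts from 5 animals, so no value below has a replicate check and no test was possible. The design text speaks of epidermis, while the sample labels name skin, and the markers given further on include those of muscle, fat and dermis.

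Signals are given relative to the 75th percentile of each array's probes, which equals 1, and differences are log2 of knockout over wild type. Of 22723 genes measured, meaning unsaturated and well above background on each array, 8.44% were at least 1.5-fold apart and 1.91% at least 2-fold apart, with a median difference of −0.04. More of the genes past 1.5-fold were lower (1377) than higher (540), and after quantile normalization the split was 1114 lower and 697 higher. Sdr9c7 itself read 0.0478 in the knockout and 0.324 in the wild type, 6.77-fold lower in the knockout, and its probe was well above background on both arrays. Whether that probe lies in the deleted part of the gene is not stated in the labels. The Sdr9c7 probe and the one for Crabp2 lie in bands of rows where dim spots scattered more between the arrays (SD of the log2 difference 0.481 inside the bands and 0.382 outside bands and block). Brighter spots, such as that of Crabp2, scattered about alike there (0.264 inside the bands and 0.259 outside). A damaged block of the slide holds none of the 9 genes.

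The probes of the 4 genes that differed most, and of the 1 gene that was not detected, are shown here as stretches of 30 bases, because each gene's value rests on that single oligonucleotide. Capitals mark AATAAA, the letters of the polyadenylation signal, read along the probe. It occurred in 3 of the 9 probes and in 12.6% of all 39429 probes. Labelling with this kit starts from the 3′ end of the messenger RNA.
Stra6, probe bases 30 to 59: tgtgctctctgtAATAAAtgtgcctctgag
Lrat, probe bases 6 to 35: tgattactgcaaAATAAAttaactttacaa
Aldh1a3, probe bases 31 to 60: gttcagcaatgaaaaAATAAAgttggacac
Crabp1, probe bases 31 to 60: ttcactgcacacagacacttcttgaggggg
Cyp26a1, probe bases 31 to 60: gaccgctttatagtgcctcatccagaggat
On mm9, the build of the array's annotation, the whole probes span chr9:58001701-58001760 on the plus strand for Stra6, chr3:82696805-82696864 on the minus strand for Lrat, chr7:73535785-73535844 on the minus strand for Aldh1a3, chr9:54616192-54616251 on the plus strand for Crabp1 and chr19:37775566-37775625 on the plus strand for Cyp26a1. They were not placed in an exon or UTR, since no annotation on mm9 was used here.

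Among the 8 measured members, 4 differences passed 1.5-fold and went both ways: the retinol receptor Stra6 and the synthetic enzyme Aldh1a3 were lower in the knockout, and the esterifying enzyme Lrat and the binding protein Crabp1 were higher. Of the 8 members measured, 4 were past 1.5-fold, 2 higher and 2 lower, and 0 were past 2-fold. After normexp background correction 1 was past 1.5-fold, Crabp1, beside 3.49% of all measured genes under that correction. Without it, 2.38% of all measured genes were past 1.5-fold higher and 6.06% past 1.5-fold lower. Past 2-fold in these directions were 0.546% and 1.37%. The measured members had a median difference of −0.04, the same to 2 decimals as all measured genes, and a median absolute difference of 0.49, against 0.16 over all measured genes. Of the 8, 4 were above 0 and 4 below. With 8 genes on 1 array per genotype, this describes the arrays and was not tested. The members were also chosen with earlier results of these data known, so the choice was not blind to their values.

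**Figure D1:**
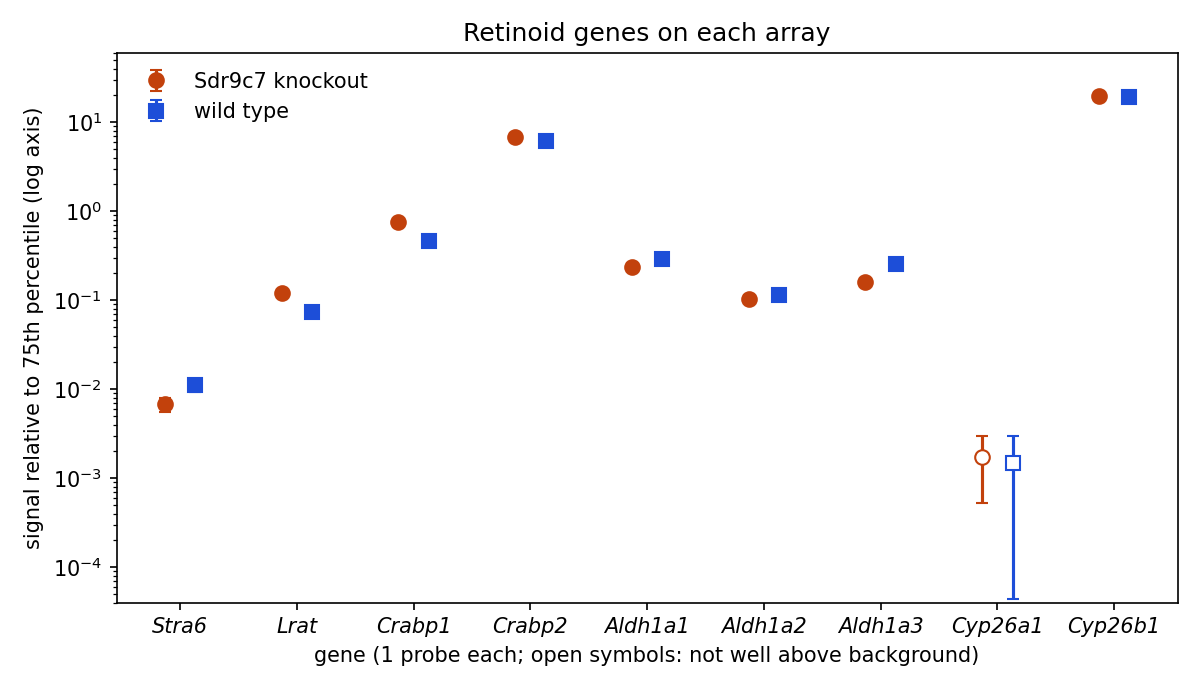
Signal of each of the 9 genes on the knockout array (circles, left of each pair) and the wild type array (squares), relative to the array's 75th percentile on a log axis; bars are 1 Feature Extraction error of the spot and are mostly smaller than the symbols. Lrat and Crabp1 sit higher on the knockout array, Stra6 and Aldh1a3 lower, and the open symbols of Cyp26a1 mark signals not well above background on either array.

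Uptake was represented by Stra6, whose relative signal was 0.00674 on the knockout array and 0.0111 on the wild type array. This is a log2 difference of −0.72, 1.65-fold lower in the knockout. The signal was close to the lowest that counted as well above background, 0.00434 on the knockout array and 0.00562 on the wild type array. Before any correction the spot averaged 58.8 intensity units over a local background of 37.5 in the knockout, and 65.2 over 36 in the wild type. The 95% interval of the Feature Extraction error, which covers the spot's own error only and no spread between animals, ran from −1.39 to −0.05. Genes this dim scattered more: in the dimmest 25% of measured genes, where Stra6 lies, 16.4% were past 1.5-fold. After normexp background correction, a model-based subtraction that damps dim signals, the difference was −0.26. A related retinol transporter gene, Stra6l, was at −0.26 without normexp correction and also dim, at 0.00794 in the knockout and 0.00950 in the wild type. The probe of Stra6l lies in a band of rows where dim spots scattered more.

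Storage was represented by Lrat, which read 0.119 in the knockout and 0.0739 in the wild type. The log2 difference was 0.69, 1.62-fold higher in the knockout, with a spot error interval from 0.29 to 1.096. In the next dimmest 25% of measured genes, which hold Lrat and the Aldh1a genes, 8.98% were past 1.5-fold, and 1.48% of all measured genes were at least as much higher as Lrat. Among the 20 repeatedly printed probes closest to its signal, the spots of 1 probe differed in log2 difference by an SD with a median of 0.0822, which is smaller than the difference. For Stra6 this median was 0.230, the same as for the dimmer Cyp26a1, so the repeated probes used may not match the signal of Stra6. Repeated spots share the same arrays, so their SD covers no spread between probes of a gene, RNA pools or animals. The spots around the Lrat spot, within 10 rows and 5 columns, had a median difference of −0.11 (182 spots), on the other side of 0. After normexp correction the difference was 0.53, or 1.45-fold.

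Other genes of ester formation and hydrolysis differed in direction. Awat2, an acyltransferase that can esterify retinol, was at 0.26 and dim (0.0357 in the knockout, 0.0298 in the wild type). Dgat1, another acyltransferase with activity on retinol, was at −0.37, with 0.535 in the knockout and 0.692 in the wild type. The ester hydrolases were lower, Ces1d 2.44-fold (0.0152 in the knockout, 0.0372 in the wild type) and Lipe, hormone-sensitive lipase, 1.91-fold (0.0911 in the knockout, 0.174 in the wild type). Lpl, lipoprotein lipase, was at −0.46. Lipe and Lpl are themselves among the 12 adipocyte markers, all of which were measured and below 0, with a median of −0.75. Their summed relative signal was 59.1 in the knockout and 90.2 in the wild type, from Cfd at −1.76 to Pparg at −0.02, and none of them was at 0 or below background. The part of fat in the values of Lipe, Lpl and Ces1d was not tested, and in RNA from whole skin fewer cells of a type and less RNA per cell cannot be told apart.

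The binding proteins for retinoic acid went separate ways in size. Crabp1, found in skin mainly in mesenchymal cells, read 0.748 in the knockout and 0.466 in the wild type, a difference of 0.68 or 1.61-fold higher. Its spot error interval ran from 0.28 to 1.08, and the median SD between repeated spots near its signal was 0.0474. In the second brightest 25% of measured genes, which hold Crabp1, 5.12% were past 1.5-fold. Crabp2, which carries retinoic acid to its nuclear receptor, read 6.82 in the knockout and 6.09 in the wild type. Its difference was 0.16, 1.12-fold higher, and its spot error interval from −0.24 to 0.56 included 0. It lies with Cyp26b1 in the brightest 25%, of which 3.29% were past 1.5-fold.

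Because Crabp1 is expressed by dermal cells, the dermal markers are given beside it. The 12 dermal fibroblast markers had a median of −0.02 and a summed signal of 376 in the knockout and 384 in the wild type, from Mfap5 at −0.57 to Twist2 at 0.26. The 12 dermal papilla markers had a median of −0.07 and a summed signal of 26.9 in the knockout and 26.6 in the wild type, from Corin at −0.62 to Rspo3 at 0.27. All 24 of these genes were well above background on both arrays, and the part of dermal cells in the Crabp1 value was not tested.

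Among the other carriers, Fabp5, a fatty acid binding protein that can also carry retinoic acid, read 110.5 in the knockout and 90.7 in the wild type (0.28). The retinol binding protein gene Rbp7 was the highest of the other retinoid handling genes at 0.45, with 2.22 in the knockout and 1.62 in the wild type. Rbp4, the plasma carrier of retinol, was at −0.31.

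Synthesis was represented by 3 aldehyde dehydrogenases, all of them on the lower side in the knockout and only Aldh1a3 past 1.5-fold. Of all 22723 measured genes, 12925 were on that side too. Aldh1a3 read 0.160 in the knockout and 0.258 in the wild type, a difference of −0.69 or 1.62-fold lower. Its spot error interval ran from −1.09 to −0.29, against a median SD of 0.0608 between repeated spots near its signal, and 4.19% of all measured genes were at least as much lower. Aldh1a1 read 0.239 in the knockout and 0.294 in the wild type (−0.30). Aldh1a2 read 0.104 in the knockout and 0.114 in the wild type (−0.14). Of all measured genes, 26.7% were at least as far apart, either way, as Aldh1a1 and 55.4% as Aldh1a2. The spot error intervals of Aldh1a1, from −0.70 to 0.10, and of Aldh1a2, from −0.54 to 0.26, included 0. All 3 genes stayed below 0 under each of 11 alternative settings, the alternative scalings among them, but Aldh1a3 was at −0.58 after normexp correction, just under 1.5-fold. Some of these settings could not change the value of a gene with 1 probe. Aldh1a7, a close paralog of Aldh1a1 in rodents, was at 0.03, with 2.90 in the knockout and 2.84 in the wild type, and probes of such paralogs can share signal.

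The step before, from retinol to retinal and back, showed no gene past 1.5-fold. Rdh10, the retinol dehydrogenase known to be needed for retinoic acid synthesis in the embryo, was at −0.19, with 0.180 in the knockout and 0.205 in the wild type. Dhrs3, which reduces retinal back to retinol, was at −0.09, with 10.2 in the knockout and 10.9 in the wild type. The highest of these enzymes were Rdh12 at 0.34 and Adh7, an alcohol dehydrogenase of epithelia, at 0.33. Rdh16 was well above background only in the knockout, at 0.00625, against 0.00483 in the wild type, and its probe lies in a band of scattering rows. These signals are close to the lowest that counted as well above background, 0.00434 in the knockout and 0.00562 in the wild type. No fold difference is given for Rdh16. The carotenoid cleaving enzymes Bco1 and Bco2 were at −0.52 and −0.51 and dim, Bco1 with 0.0127 in the knockout and 0.0182 in the wild type, and Bco2 with 0.0574 in the knockout and 0.0815 in the wild type.

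Breakdown of retinoic acid falls to the Cyp26 enzymes, of which Cyp26b1 was detected and Cyp26a1 was not. Cyp26b1 read 19.7 in the knockout and 19.0 in the wild type, a difference of 0.05 with a spot error interval from −0.35 to 0.45. The median SD between repeated spots near its signal was 0.0461, about the size of the difference. Cyp26a1 was not well above background on either array and has no fold difference. Its processed signal was 3.36 intensity units in the knockout with an error of 2.35, and 2.58 in the wild type with an error of 2.57. The negative control spots had a 95th percentile of 4.50 in the knockout and 3.33 in the wild type, so the Cyp26a1 spot read below that percentile on both arrays. Cyp26c1 was likewise not well above background on either array, whereas Cyp2s1, another cytochrome with reported activity on retinoic acid, was at 0.16.

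**Figure D2:**
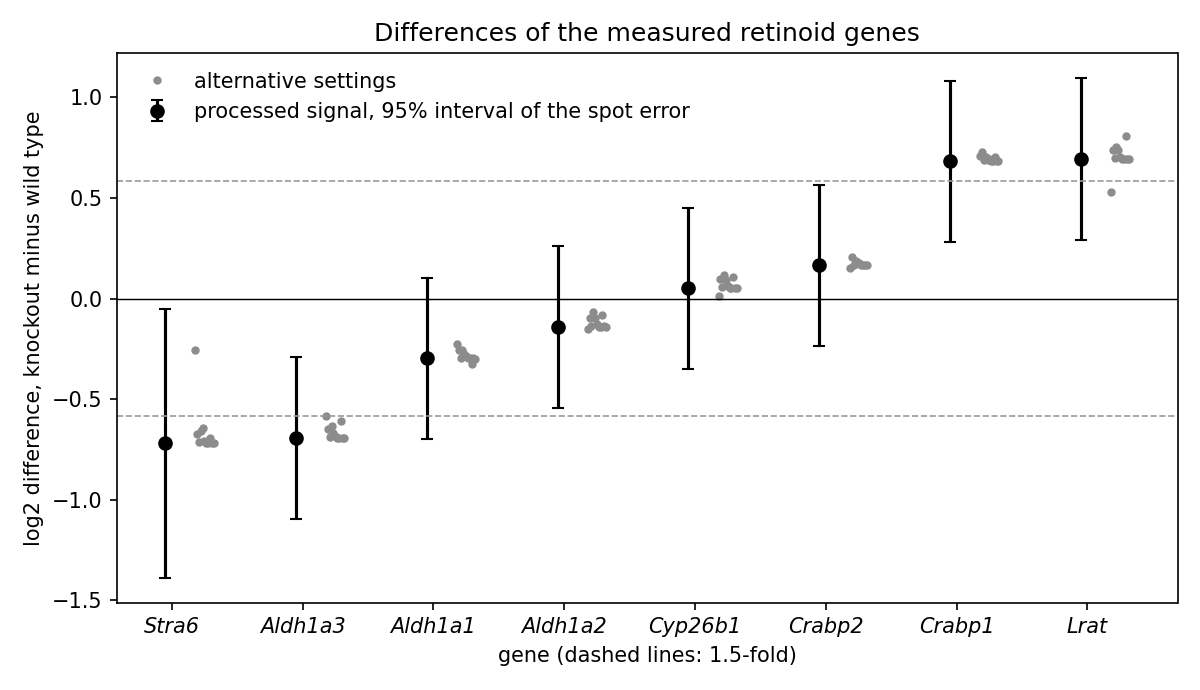
Log2 difference, knockout minus wild type, of the 8 measured genes (black points, with bars of the 95% interval of the spot error), beside the values under the alternative settings (grey points); dashed lines mark 1.5-fold. The bars of Stra6, Aldh1a3, Crabp1 and Lrat do not reach 0, and the grey point of Stra6 at −0.26 is the normexp value.

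Cyp26a1 is a classical target of retinoic acid, and its promoter is shown because it was the only one among those searched with a direct repeat of receptor half-sites. The windows of RefSeq on GRCm38.p6, from 250 bases before to 50 after each start, held 7 of the 9 genes in 11 windows. The half-site AGGTCA, with the known variants AGTTCA or GGGTCA or also GGTTCA, was searched on both strands as a direct repeat spaced by 1, 2 or 5 bases. The spacing of 5 occurred in 1 of the 11 windows and in 32 of all 32851 (0.0974%). The spacings of 1 and 2 occurred in 0 of the 11, and in 0.222% and 0.268% of all windows. The repeat of Cyp26a1 begins 32 bases and ends 16 bases before the annotated start, in the stretch chr19:37697770-37697799 on the plus strand of GRCm38.p6, with the half-sites in capitals, here on the reverse strand.
Cyp26a1: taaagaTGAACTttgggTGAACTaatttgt
Single half-sites were common, in 3 of the 11 windows and in 43.7% of all windows. A match describes letters and is not a measured binding site. Crabp2 and Aldh1a3 had no window in the table used.

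The wider list of 39 other retinoid handling genes had 33 measured members. Of these, 2 were past 1.5-fold, Ces1d and Lipe, both lower, against 8.44% of all measured genes past 1.5-fold. The list had 15 members above 0 and 18 below, with a median of −0.03.

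**Figure D3:**
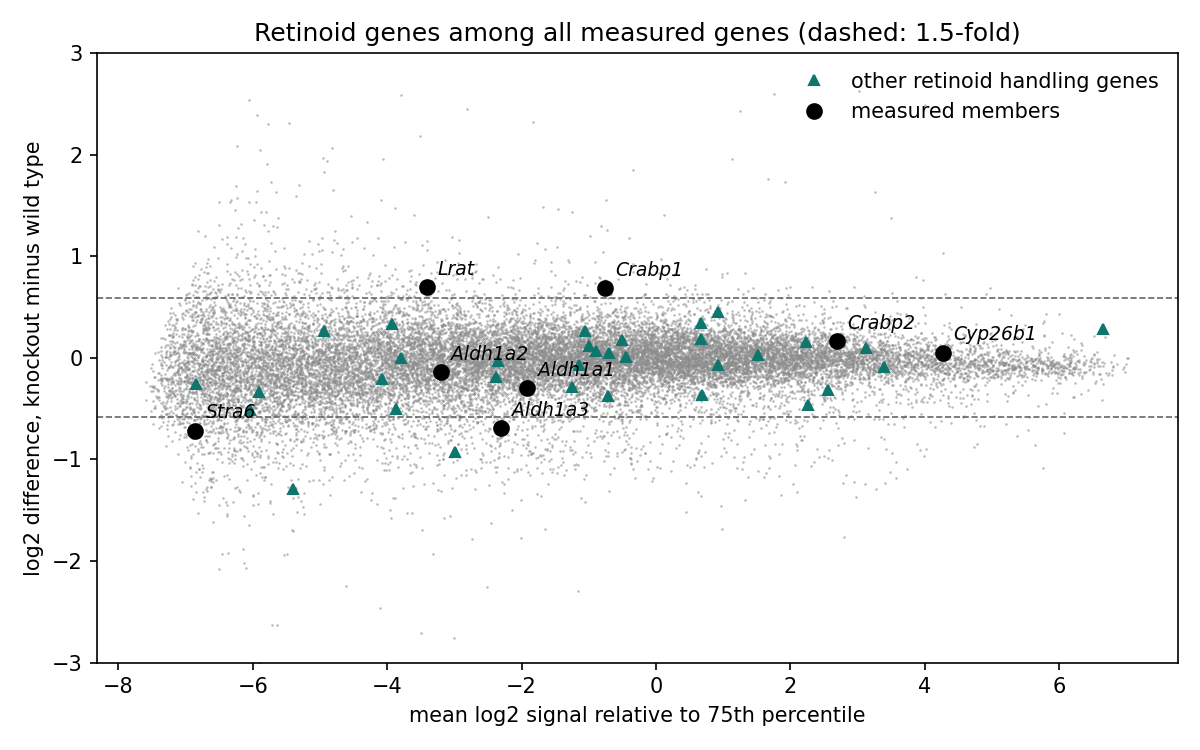
Log2 difference, knockout minus wild type, against the mean log2 signal of both arrays, for all measured genes (grey), the 8 measured members (black, named) and the 33 other retinoid handling genes (green triangles); dashed lines mark 1.5-fold and the axis stops at 3 on the log2 scale, beyond which 14 genes lie. Scatter is wider at low signal, where Stra6 lies, than at the signal of Crabp1.

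None of the 6 receptors through which retinoic acid acts was past 1.5-fold. Rarg, the main retinoic acid receptor of epidermis, was at 0.34, with 12.2 in the knockout and 9.58 in the wild type. Rara was at 0.07 and Rxrb at 0.01. Rxra was at −0.04 as the mean of 2 probes at 0.17 and −0.24, and Rxrg was at −0.28. Rarb, both a receptor and a known target of retinoic acid, was at −0.27 over 3 probes that were all below 0, from −0.40 to −0.13.

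Among 20 receptors and co-regulators, all measured, 10 were above 0 and 10 below, with a median of 0.00. The co-regulator Nrip1 was lowest at −0.43. The coactivator Ncoa3 followed at −0.38, but its 2 probes disagreed, at −0.91 and 0.16. Ep300, an acetyltransferase coactivator, was at 0.23. The single gene past 1.5-fold was its relative Crebbp, whose 1 probe lies in the damaged block of the slide, and its value of 6.10 is not treated as a difference in expression.

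Genes known to be induced by retinoic acid were mixed, with 20 of 24 measured, 6 above 0 and 14 below, and a median of −0.13. The list holds none of the 9 members, though the undetected Cyp26a1 is a classical target, so these counts do not cover them. Of all measured genes, 43.1% were above 0. Of the 20, 1 was past 1.5-fold, against 8.44% of all measured genes past it either way and 6.06% past it lower. This was Tgm2, tissue transglutaminase, 1.61-fold lower, with 2.32 in the knockout and 3.73 in the wild type. Its 2 probes gave −0.70 and −0.68. Next lowest were Nrip1 at −0.43 and the transcription factor gene Gata6 at −0.42. Highest were the homeobox genes Meis2 at 0.53, Meis1 at 0.49 and Hoxb4 at 0.42. The probe of Meis2 lies in a band of scattering rows. Tgm2 is also expressed in blood vessels, and 7 of the 8 endothelial markers were below 0, with a median of −0.20, from Cldn5 at −0.86 to Flt1 at 0.21. Their summed signal was 6.33 in the knockout and 8.75 in the wild type, of which Cldn5 gave 2.28 and 4.14. Of the 8 endothelial markers only Cldn5 was past 1.5-fold, and none was below background. Their part in the Tgm2 value was not tested.

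Cell type markers show what else differed between the RNA pools. Skeletal muscle markers were lowest, with a median of −1.06 over 19 genes and 18 below 0, from Pvalb at −2.26 to Myh2 at 0.18, and a summed signal of 193 in the knockout and 323 in the wild type. Hair shaft and inner root sheath markers had a median of −0.59 over 17 genes, with 14 below 0 and 9 past 1.5-fold lower, from Krt86 at −0.94 to Lef1 at 0.20, and a summed signal of 101.7 in the knockout and 138 in the wild type. Epidermal keratinocyte markers were level, with a median of 0.04 over 11 genes, from Lor at −0.15 to Ivl at 0.26, and a summed signal of 395 in the knockout and 399 in the wild type. Melanocyte markers had a median of −0.14 (Pmel at −0.44 to Kit at 0.17), Schwann cell markers −0.17 and macrophage and Langerhans cell markers 0.17 (Csf1r at −0.05 to Cd163 at 0.43), with Cd207 not above background. Stra6 and Aldh1a3 were lower on an array where most muscle, fat, and hair shaft and inner root sheath markers were lower too. The part of those tissues in the values of Stra6 and Aldh1a3 was not tested. Lrat and Crabp1 were higher on that array.

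**Figure D4:**
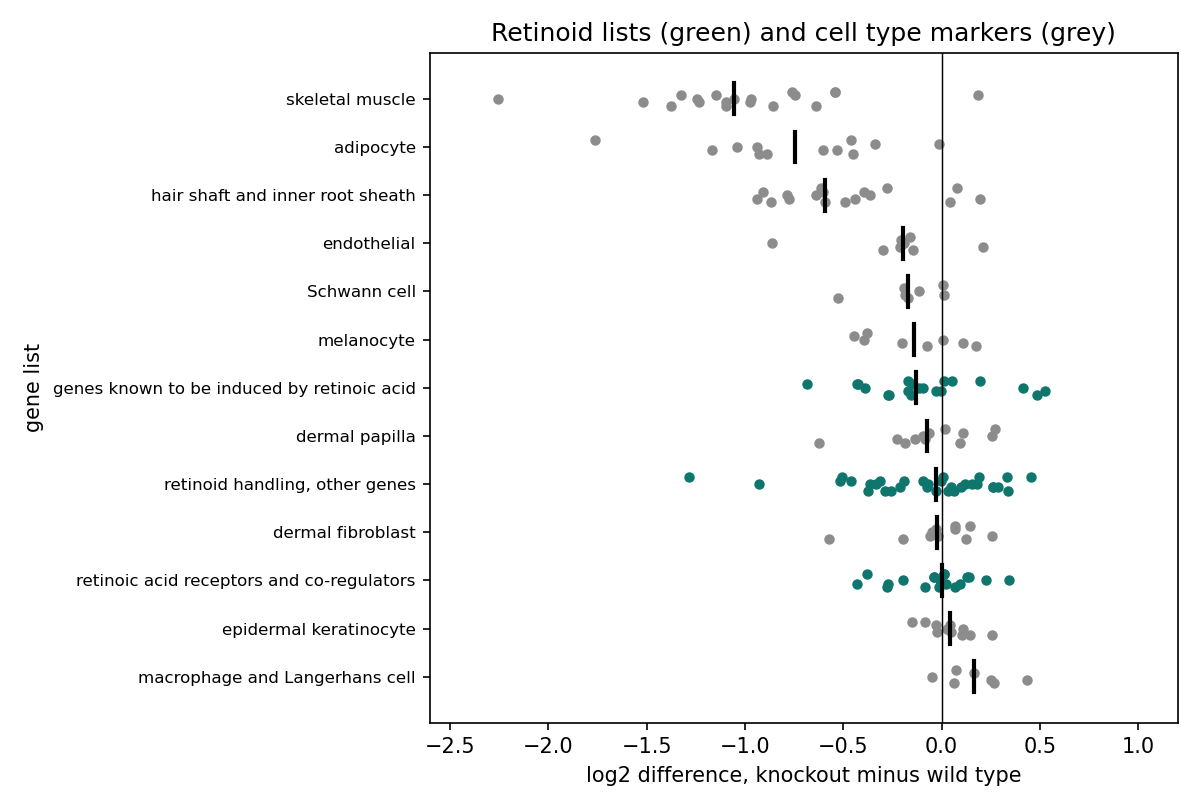
Log2 difference, knockout minus wild type, of each measured gene (points) and the median (black bar) of the 3 retinoid lists (green) and 10 lists of cell type markers (grey); the gene in the damaged block lies outside the axis and is not drawn, though it counts in its list's median. The medians of muscle, adipocyte, and hair shaft and inner root sheath markers lie well below 0, while the retinoid lists have medians between −0.13 and 0.00.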

How the data were processed

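Per the file headers, the authors deposited for each of 44397 spots a processed intensity with its error and flags. It comes from Agilent Feature Extraction 11.5.1.1 (per the submitters' processing notes), with background subtraction and spatial detrending per array. Per the labels, 200 ng of total RNA was labelled with Cy3. The deposited series matrix holds a ratio, found here to be the processed intensity over 1 constant per array (2080 for the knockout, 1906 for the wild type), with medians of 0.0840 and 0.0855 and no centring of genes.

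The deposited intensity was put on a log2 scale. After control spots and 180 population outliers had been removed, spots of a probe were averaged, and the 75th percentile over 39429 probes was subtracted. A gene is the mean of its probes unsaturated and well above background on each array (76.8% of probes were well above background in the knockout, 74.9% in the wild type, and 0 spots were saturated). Array and genotype cannot be told apart, and the number of arrays limits the precision. The Feature Extraction error is taken as 1 SD of a spot. Among 320 probes with at least 8 spots the median SD between spots was 0.0581. Between probes of a gene the pooled SD was 0.25 over 5178 genes.

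The 9 genes were found by the array's gene names, and list genes through a RefSeq table of GRCm38.p6 (28330 probes by accession, 2204 by symbol, 174 by synonym, and 8721 kept the array's name). The members and lists were chosen with earlier results of these data known, as were the damaged block and the bands. Named by rule were the 9 genes, Sdr9c7, list members past 1.5-fold, the 3 lowest and 3 highest of each retinoid list and the extremes of each marker list. The other genes were picked after their values were seen, and not every gene under this rule is reported here. Alternatives covered background correction, scaling, filters, probe choice and position, with limma 3.58.1 in R 4.3.3 and pandas 2.3.3 in Python 3.11.15. The calculation of the differences, not their significance, was checked on simulated signals.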

Additional observations from a re-analysis of the deposited data

How the results depend on the processing

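Under 11 alternative settings, the 8 measured members and Sdr9c7 gave 97 values, all 97 with the sign first given, and 95 of them moved by less than the spot error. The exceptions came from normexp correction, with Stra6 at −0.26 and Sdr9c7 at −2.05. Each of these genes has 1 probe, so dropping the dim filter or taking the brightest probe returned the first value by construction. Median scaling, scaling over detected probes, the deposited ratios and the settings that left spots out only shifted these genes by a shared amount. Counts of settings therefore overstate the number of separate checks. Crabp1 stayed past 1.5-fold in 11 of 11 settings (0.68 to 0.73), and Lrat (0.53 to 0.81), Aldh1a3 (−0.69 to −0.58) and Stra6 (−0.72 to −0.26) each in 10 of 11, the value short of it being that after normexp correction. Normexp correction left 1 member past 1.5-fold, 1 higher and 0 lower, and 794 of all genes past 1.5-fold and 145 past 2-fold, against 1917 and 435. With no filter on dim probes these counts were 4533 and 1801 over 31044 genes. With block and bands left out 263 of 18776 genes were past 2-fold, and Crabp2 and Sdr9c7 have no value there. No paired analysis was possible because each genotype has 1 array. Signal over background limits Stra6 and Cyp26a1 most.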
